A study of Mus musculus with 6 samples.

Results

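Gasdermins are a family of proteins whose cleaved amino-terminal part opens pores in cell membranes. Such pores release interleukin-1 family cytokines and can end in the lytic cell death called pyroptosis. In mice the family has expanded by duplication: the Gsdma genes are known from skin and the upper digestive tract, the Gsdmc genes from intestinal epithelium, and Gsdmd from many cell types, where it is cut by inflammatory caspases. Here 8 gasdermin genes, Gsdma, Gsdma2, Gsdma3, Gsdmc, Gsdmc2, Gsdmc3, Gsdmc4 and Gsdmd, were read by symbol from a table of 21526 genes. The list was chosen by family name with the genes' counts in these libraries and their fold change between the groups in view, so their own levels and fold changes are given as a description with no test. The family's more distant members, Gsdme and Pjvk, were added for comparison.

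RNA was measured in epithelial cells released from the gastric corpus with EDTA and not cultured, in 3 libraries of Yap-activated gastric cancer and 3 libraries of Normal stomach. Yap-activated mice carried the alleles CluCreERT2, R26rtTA and HA-Yap+: a tamoxifen-dependent Cre at the Clu gene, a doxycycline-dependent activator at Rosa26 and a tagged Yap transgene. Normal mice were wild type (WT) with none of these alleles, and per the labels both groups received 2 mg tamoxifen on 5 days and doxycycline food for 14 days. The sources used here give neither age nor sex. What the Cre and rtTA alleles do by themselves cannot be told apart from what Yap does. The labels do not say that each library came from a separate mouse, so the spread between libraries may be technical in part.

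Totals ran from 25580734 to 44295619 counts in Yap-activated libraries and from 36815754 to 48440033 in Normal libraries. Expression is given as CPM, counts scaled to a common library size after TMM scaling, which evens out differences in composition between libraries. Yap1 had 3085, 1468 and 1651 CPM in Yap-activated libraries and 100, 105 and 106 CPM in Normal libraries. Markers of the labelled corpus epithelium set the groups apart: the summed level of 4 parietal cell genes was 24.6 to 33.6 CPM in Yap-activated and 21268 to 28949 CPM in Normal libraries, and that of 3 chief cell genes was 152 to 186 CPM in Yap-activated and 87908 to 137667 CPM in Normal libraries. Neck cell genes lay closer together: the summed level of Muc6 and Tff2 was 1088 to 1544 CPM in Yap-activated and 1906 to 3057 CPM in Normal libraries. The groups overlap for Tff2 and not for Muc6. Summed levels of 4 general epithelial genes were 7348 to 8218 CPM in Yap-activated and 3450 to 4236 CPM in Normal libraries. In such bulk RNA, fewer cells of a type and less RNA per cell cannot be told apart.

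The genes lie in 3 places (GENCODE, GRCm38). Gsdma3, Gsdma2 and Gsdma follow each other on the plus strand of chromosome 11, from 98626360 to 98677708, a stretch of 51.3 kb. Gsdmc, Gsdmc2, Gsdmc3 and Gsdmc4 lie side by side on chromosome 15 (minus strand), from 63775968 to 63912297, a stretch of 136 kb. Gsdmd lies on the same chromosome, 11.95 Mb further on, from 75862327 to 75867408 on the plus strand. No annotated gene overlaps any of the 8.

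The copies within each cluster are alike in sequence, which bears on how reads are divided among them. The first 60 coding bases are shown for the copies that carried most reads and their neighbours, with capitals marking bases that differ from the first gene of each set (reference transcripts, GENCODE, GRCm38; chromosome 11, plus strand, for Gsdma genes and chromosome 15, minus strand, for Gsdmc genes).
Gsdma2: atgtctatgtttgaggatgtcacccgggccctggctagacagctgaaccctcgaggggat
Gsdma3: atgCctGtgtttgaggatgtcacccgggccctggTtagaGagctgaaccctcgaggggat
Gsdma: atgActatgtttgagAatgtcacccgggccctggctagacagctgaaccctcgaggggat
Gsdmc2: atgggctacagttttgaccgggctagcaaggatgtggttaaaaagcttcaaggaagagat
Gsdmc3: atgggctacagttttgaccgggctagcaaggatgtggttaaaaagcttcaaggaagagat
Gsdmc4: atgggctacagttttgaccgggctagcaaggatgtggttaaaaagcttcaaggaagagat
Gsdmc: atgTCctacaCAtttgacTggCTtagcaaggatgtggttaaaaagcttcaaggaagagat
Gsdmc2, Gsdmc3 and Gsdmc4 have the same 60 bases, while Gsdmc differs from them at 7. Over whole coding sequences Gsdmc2 matched Gsdmc3 at 97.1% and Gsdmc4 at 93.8% of aligned bases, and Gsdma2 matched Gsdma at 90.9% and Gsdma3 at 89.0%. At the read length of 50 bases, 51.3% of the 50-base stretches in Gsdmc2 transcripts, 46.0% of those in Gsdmc3 and 39.0% of those in Gsdmc4 also occur in another transcript, each time one of the Gsdmc genes. For Gsdma2 the share was 5.10%, and for Gsdmd and Gsdme it was 0. The sources used here do not say how reads that match several places were counted, so values of single Gsdmc copies are less certain than those of Gsdma2 and Gsdmd.

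Gsdma2 was the main gasdermin of the Normal corpus, and nearly all of its RNA was missing from Yap-activated tissue. It had 4.51, 4.72 and 3.81 CPM in Yap-activated libraries, from 133, 198 and 205 counts, against 2992, 2929 and 2449 CPM in Normal libraries, from 102747, 123274 and 77469 counts. The groups lie far apart, and within each group the libraries are close together. The mean was 4.35 ± 0.48 CPM in Yap-activated and 2790 ± 297 CPM in Normal libraries (SD, n = 3 each), a log2 fold change of -9.33 (SE 0.23), or 643-fold lower in Yap-activated tissue. In order of log2 fold change, it was number 11 from the lowest of the 14600 genes tested. Gsdma2 alone held 0.210 to 0.254% of all counts in Normal libraries. By level per length (CPM per kb of exon) it stood between number 9952 and number 10726 of 14599 genes in Yap-activated libraries, and between number 26 and number 29 in Normal libraries.

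The other members of the chromosome 11 cluster were at or near 0 in both groups. Gsdma, known as a gasdermin of skin, had 3, 7 and 10 counts in Yap-activated and 5, 17 and 5 counts in Normal libraries, and the groups overlap. Gsdma3, known from mutations that disturb hair follicles, had 0 counts in all 3 Yap-activated libraries and 0, 7 and 0 counts in Normal libraries. A count of 0 allows up to 3 counts, which is 0.0558 to 0.102 CPM in Yap-activated libraries and 0.0713 to 0.0948 CPM in Normal libraries. Gsdma and Gsdma2 share 155 50-base stretches of transcript, 5.79% of those in Gsdma.

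Both Gsdma and Gsdma3 were highest in Normal replicate 2, which also stood apart by its squamous forestomach markers. The summed level of 12 such genes was 85.6, 76.3 and 54.0 CPM in Yap-activated libraries and 8.10, 54.5 and 7.15 CPM in Normal libraries. Of the 11 of these genes tested, 0 were higher and 1 was lower in Yap-activated tissue by edgeR's test, and Sprr3 was untested. Among all genes tested, 29.8% were higher and 29.7% lower. Krt5, a keratin of basal squamous cells, was at 14.0, 0.739 and 2.70 CPM in Yap-activated libraries. It was at 8.70 CPM in Normal replicate 2, at 0.0874 CPM in Normal replicate 1 and at 0 in Normal replicate 3. In the 3 Yap-activated libraries, where the squamous sum was 54.0 to 85.6 CPM, Gsdma3 was at 0, which allows up to 3 counts. The genes of that sum differed: Krt13 had 20.2, 35.3 and 23.8 CPM in Yap-activated and 0.582, 16.7 and 0.0316 CPM in Normal libraries. Sprr3 had 3, 0 and 2 counts in Yap-activated and 0, 135 and 0 counts in Normal libraries. The part of squamous cells in the Normal counts of Gsdma and Gsdma3, at most 17 and 7 per library, was not tested.

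**Figure D1:**
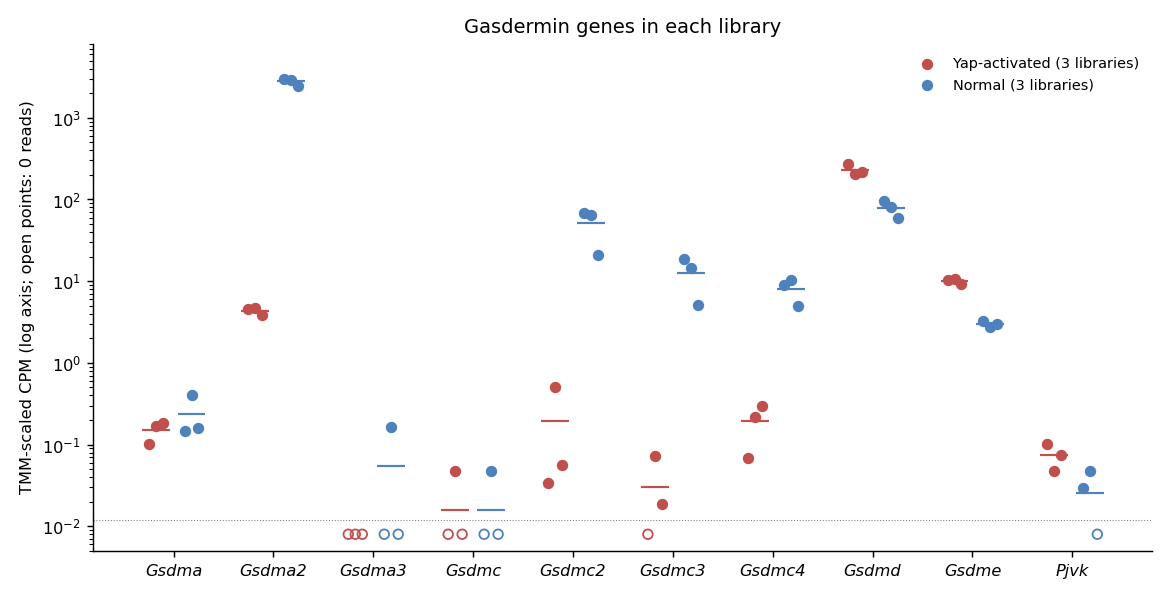
TMM-scaled CPM (log axis) of the 8 gasdermin genes and of Gsdme and Pjvk in each library, Yap-activated in red and Normal in blue, with the mean of each group as a line and libraries with 0 reads as open points at the bottom. Gsdma2 and the copies Gsdmc2, Gsdmc3 and Gsdmc4 are lower, and Gsdmd and Gsdme higher, in all 3 Yap-activated libraries than in any Normal library.

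Of the chromosome 15 copies, 3 were expressed in the Normal corpus and nearly absent from Yap-activated tissue. Gsdmc2 had 0.0339, 0.501 and 0.0558 CPM in Yap-activated libraries, from 1, 21 and 3 counts, against 68.9, 64.4 and 20.8 CPM in Normal libraries. Gsdmc3 had 0, 0.0716 and 0.0186 CPM in Yap-activated libraries, from 0, 3 and 1 counts, against 18.6, 14.4 and 5.09 CPM in Normal libraries. Gsdmc4 had 0.0678, 0.215 and 0.298 CPM in Yap-activated libraries, from 2, 9 and 16 counts, against 8.94, 10.3 and 4.93 CPM in Normal libraries. The groups do not overlap for any of the 3, nor do they at 67.6% of all genes tested. These 3 copies passed the filter on low counts through their Normal counts. Normal replicate 3 was the lowest Normal library each time.

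The log2 fold change was -7.98 (SE 0.85) for Gsdmc2, -8.50 (SE 0.81) for Gsdmc3 and -5.27 (SE 0.49) for Gsdmc4. With so few Yap-activated reads, 1 library decides much of these values: without Yap-activated replicate 2 they were -9.98, -9.71 and -5.28. Without Yap-activated replicate 3 the value of Gsdmc2 was -7.39, and without Normal replicate 3 it was -8.36. Counted as 1 unit, the 4 Gsdmc copies had a log2 fold change of -7.29 (SE 0.70). Moving reads from one copy to another does not change this sum. If reads that match several copies were left out of the counts, the sum could still be affected. The fourth copy, Gsdmc, had 0, 2 and 0 counts in Yap-activated and 0, 2 and 0 counts in Normal libraries, which is below the limit that a count of 0 allows.

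The makeup of the cluster rests on few reads in Yap-activated libraries, which had 3, 35 and 20 counts in all. Gsdmc2 held 60% (95% interval 42.1 to 76.1%) of the 35 counts in Yap-activated replicate 2 and 15.0% (3.21 to 37.9%) of the 20 counts in replicate 3, where Gsdmc4 held 80.0% (56.3 to 94.3%). Gsdmc2 held 71.5% (69.9 to 73.0%), 72.2% (70.7 to 73.6%) and 67.5% (64.5 to 70.5%) of the cluster's 3311, 3753 and 976 counts in Normal libraries. Gsdmc2 was thus the largest part in each Normal library. These exact binomial intervals cover counting error only.

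The Gsdmc genes are known from intestinal epithelium, so its markers were read beside them. Of 7 such genes 5 were tested, of which 3 rose and 0 fell by edgeR's test, where 29.8% of all genes rose. Cdx1 was at 0 in all libraries. The summed level of the 7 genes was 96.9, 163 and 130 CPM in Yap-activated and 29.0, 58.8 and 33.1 CPM in Normal libraries. Most of it was Vil1, the villin gene of brush borders, with 78.5, 148 and 123 CPM in Yap-activated and 18.0, 41.4 and 27.1 CPM in Normal libraries. The others that rose, Alpi and Cdh17, were at most 6.68 and 1.84 CPM in Yap-activated libraries. Fabp2 at -0.87 (adjusted p = 0.450) and Muc2 at -0.49 (adjusted p = 0.267) did not pass. Cdx2 was untested, with 30, 4 and 19 counts in Yap-activated libraries and 0 in all Normal libraries. Markers of the stomach's own surface pit cells were lower in 4 of 4 cases, where 29.7% of all genes were called lower. Their sum was 1377 to 2113 CPM in Yap-activated and 42996 to 50222 CPM in Normal libraries. The part of the change in cell types in the Gsdma2 and Gsdmc results was not tested.

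Of the Gsdmc copies, only Gsdmc3 was matched in the promoter table used (RefSeq, GRCm38.p6), and its 250 bases before the start site, chr15:63878559-63878808 on the minus strand, are shown as the one promoter at hand of the copies that were lower together.
Gsdmc3 promoter: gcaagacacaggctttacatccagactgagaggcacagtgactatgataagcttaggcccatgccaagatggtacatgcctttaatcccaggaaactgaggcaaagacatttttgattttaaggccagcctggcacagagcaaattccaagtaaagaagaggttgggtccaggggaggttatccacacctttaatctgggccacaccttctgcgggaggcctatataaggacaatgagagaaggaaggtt
It has no match on either strand to CATTCC, the core motif of the TEAD factors through which Yap binds DNA, which 12.6% of all 32851 promoters of this length hold. It has none to TGANTCA, the AP-1 motif, which 6.75% hold. The RefSeq promoters of Gsdma3 and Gsdme had no match to either motif, and that of Pjvk had 1 to CATTCC. No match says only that these letters are not in this window.

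Gsdmd, the pore-forming protein that inflammatory caspases cleave, was the one member of the 8 that was higher in Yap-activated tissue. It had 274, 203 and 215 CPM in Yap-activated libraries and 94.8, 80.2 and 59.97 CPM in Normal libraries. The groups do not overlap, nor do they at 67.6% of all genes tested. The mean was 231 ± 37.9 CPM in Yap-activated and 78.3 ± 17.5 CPM in Normal libraries (SD, n = 3 each), a log2 fold change of 1.56 (SE 0.19), or 2.95-fold higher. Per length it stood between number 254 and number 372 of 14599 genes in Yap-activated libraries and between number 995 and number 1681 in Normal libraries. Leaving out single libraries gave log2 fold changes from 1.40 to 1.71.

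Most markers of myeloid cells, which are known to express Gsdmd, were also higher. Of the 8 tested of 9 such genes, 6 rose and 0 fell in Yap-activated tissue by edgeR's test, where 29.8% of all genes rose. Itgam at 0.78 (adjusted p = 0.314) and Adgre1 at 0.07 (adjusted p = 0.922) did not pass. Adgre1 had 3.83, 2.31 and 13.0 CPM in Yap-activated and 5.97, 6.20 and 6.13 CPM in Normal libraries. The summed level of the 9 genes was 1005, 275 and 559 CPM in Yap-activated libraries and 60.9, 62.2 and 58.2 CPM in Normal libraries. Of their defining genes, Ptprc, the pan-leukocyte marker, was at 33.3, 14.3 and 60.1 CPM in Yap-activated and 10.3, 9.46 and 10.2 CPM in Normal libraries. Ly6g was untested, with 75, 3 and 11 counts in Yap-activated libraries and 0 in all Normal libraries. Much of the Yap-activated sum came from S100a8, S100a9 and Cd14, which were highest in replicate 1, as Gsdmd was, at 219, 274 and 401 CPM. Ptprc, Cd68, Csf1r and Adgre1 were highest in replicate 3, and Cd68, a macrophage marker, was lowest in replicate 1, with 9.46, 15.3 and 23.5 CPM in Yap-activated and 5.27, 6.08 and 6.29 CPM in Normal libraries. The part of myeloid cells in the level of Gsdmd was not tested.

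Gsdme, the gasdermin that the apoptotic caspase-3 cleaves, was also higher. It had 10.5, 10.5 and 9.26 CPM in Yap-activated libraries and 3.26, 2.78 and 3.003 CPM in Normal libraries, with the 3 libraries of each group close together. In edgeR's test it was 1.74 log2 units higher (SE 0.18, adjusted p = 1.03e-04), higher in 3 of 3 libraries. Gsdme overlaps Mpp6 on the opposite strand, and the sources used here do not say whether the counting used strand. Pjvk, a member needed for hearing, had 3, 2 and 4 counts in Yap-activated and 1, 2 and 0 counts in Normal libraries and was not tested.

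Of the 8 members, 5 passed the filter on low counts. In the same test 1 of the 5 was called higher and 4 lower at an adjusted p under 0.05, where 59.5% of all 14600 genes were called, 29.8% as higher and 29.7% as lower. Of all calls 50.0% were higher, against 76.6% when library totals replaced TMM. The groups did not overlap at any of the 5, nor at 67.6% of all genes tested. The members were chosen with this contrast known, so nothing is read from these counts.

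Set against each other per length, the genes of the family changed places. Gsdma2 made up 1.43 ± 0.26% of the summed gasdermin level (CPM per kb, the 8 members with Gsdme and Pjvk) in Yap-activated libraries and 93.4 ± 1.65% in Normal libraries (SD, n = 3 each). Gsdmd made up 97.4 ± 0.57% in Yap-activated and 3.37 ± 0.39% in Normal libraries. The level of Gsdmd itself was 97.2 ± 16.0 CPM per kb in Yap-activated and 32.9 ± 7.35 CPM per kb in Normal libraries. The summed level of all 10 genes was 118, 88.4 and 92.9 CPM per kb in Yap-activated and 1053, 1023 and 833 CPM per kb in Normal libraries.

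The order of mean levels per length in Yap-activated tissue was Gsdmd, Gsdma2 at 1.41 ± 0.15, Gsdme at 0.791 ± 0.055, and all others below 0.1 CPM per kb, from 0 to 21 counts per library. In the Normal corpus it was Gsdma2 at 905 ± 96.3, Gsdmd at 32.9 ± 7.35, Gsdmc2 at 22.2 ± 11.5, Gsdmc3 at 5.45 ± 2.97 and Gsdmc4 at 3.87 ± 1.34 CPM per kb (SD, n = 3). Among these, Gsdmc2 and Gsdmd, and Gsdmc3 and Gsdmc4, differ by less than the sum of their SDs. The exon length of Gsdme takes in transcripts with retained introns: with the length of the transcript with the longest coding sequence, Gsdme made up 3.002 ± 0.43% in Yap-activated and 0.0695 ± 0.0095% in Normal libraries, in place of 0.804 ± 0.12% in Yap-activated and 0.0246 ± 0.0035% in Normal libraries. With these lengths Gsdma2 made up 1.94 ± 0.35% in Yap-activated and 95.5 ± 1.09% in Normal libraries, so Gsdme stood above Gsdma2 in all 3 Yap-activated libraries and their order there depends on the length used. Gsdmd then made up 94.8 ± 0.93% in Yap-activated and 2.48 ± 0.30% in Normal libraries (SD, n = 3 each).

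**Figure D2:**
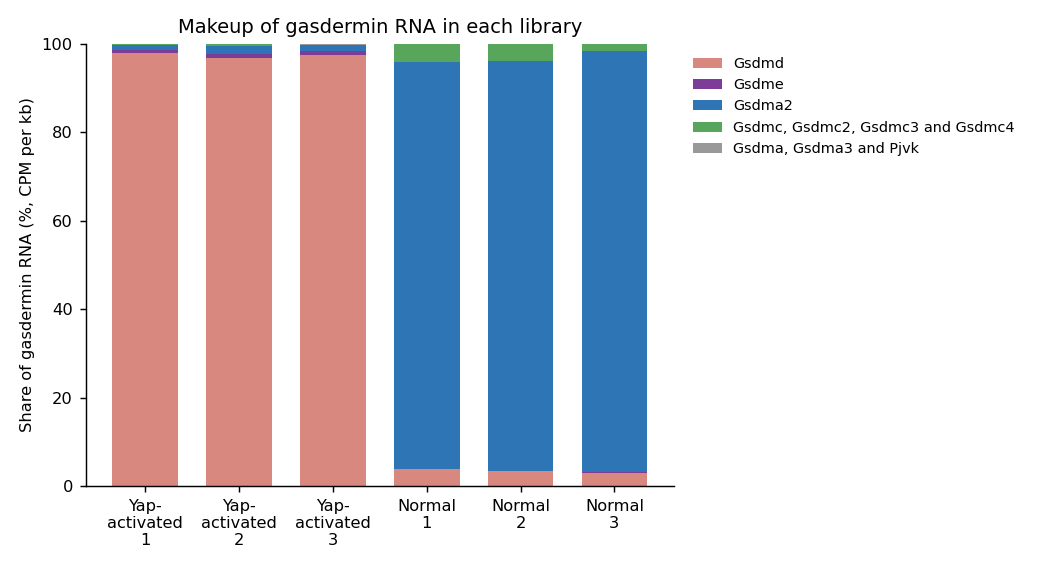
Share of each gasdermin in the summed level of the 10 genes, in CPM per kb of exon, by library (3 Yap-activated on the left, 3 Normal on the right). Gsdmd fills 96.8 to 97.9% of each Yap-activated bar, and Gsdma2 fills 92.2 to 95.3% of each Normal bar.

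The genes whose levels over the 6 libraries were most like those of a member were found by the root-mean-square difference in centred log2 CPM. For Gsdma2 they were Cckar, a cholecystokinin receptor, at 0.29, Pgc, the pepsinogen C gene of chief cells, at 0.31, Pnliprp2, a pancreatic lipase-related gene, at 0.33, Atp4a, the catalytic subunit of the parietal proton pump, at 0.36, and Kcnj16, a potassium channel gene, at 0.37. Pgc had 185, 151 and 170 CPM in Yap-activated and 87690, 109624 and 137432 CPM in Normal libraries. Among Normal libraries Gsdma2 was lowest in replicate 3, where Pgc, Cckar, Atp4a and Kcnj16 were highest. Pnliprp2 was lowest in Normal replicate 1. The genes most like Gsdma2 had log2 fold changes from -9.65 to -9.28, against -9.33 for Gsdma2. With the groups this far apart, such a match rests mostly on the fold change, which was in view when the members were chosen. For Gsdmc2 the most like was Akr1c14, an aldo-keto reductase, at 0.65, with Gsdmc3 next at 0.66. Akr1c14 had 0.983, 4.58 and 1.17 CPM in Yap-activated and 255, 284 and 180 CPM in Normal libraries, highest in Yap-activated replicate 2 and lowest of the Normal libraries in replicate 3, as Gsdmc2 was. Akr1c14 was also the most like to Gsdmc3, at 0.53. For Gsdmc4 it was Gstt1, a glutathione transferase, at 0.35. These are descriptions over 6 libraries in 2 groups, and Gsdmc2 and Gsdmc3 share sequence.

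Genes beside the gasdermins moved both ways. Of 70 protein-coding genes within 500 kb of a member, 65 were tested, of which 18 rose and 20 fell in Yap-activated tissue by edgeR's test, 58.5% of them against 59.5% of all genes. Beside the Gsdma cluster, 6 of 28 tested were higher and 6 lower, with a median log2 fold change of -0.03, against 0.01 for all genes. The nearest on one side was Psmd3, a proteasome subunit gene 4.8 kb from Gsdma, with 122, 126 and 116 CPM in Yap-activated and 124, 127 and 121 CPM in Normal libraries (log2 fold change -0.03, adjusted p = 0.768). On the other side it was Ormdl3, a regulator of sphingolipid synthesis, 39.0 kb from Gsdma3, with 17.2, 18.5 and 19.7 CPM in Yap-activated and 38.1, 39.4 and 43.9 CPM in Normal libraries (log2 fold change -1.13, adjusted p = 8.14e-05). Csf3, the gene of granulocyte colony-stimulating factor 23.6 kb from Gsdma, was named after its value was seen: it had 9.86, 1.07 and 4.63 CPM in Yap-activated and 0.0874, 0.119 and 0 CPM in Normal libraries (log2 fold change 6.09, SE 1.07, adjusted p = 0.00242, edgeR). Without Yap-activated replicate 1 its log2 fold change was 5.25, and without Normal replicate 2 it was 6.73.

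Beside the Gsdmc cluster 2 genes were tested, and both were higher, against the direction of the cluster. Fam49b, 16.8 kb from Gsdmc4, had 65.5, 50.1 and 66.8 CPM in Yap-activated and 34.7, 33.0 and 29.1 CPM in Normal libraries (log2 fold change 0.91, adjusted p = 7.90e-04). The other was Asap1 at 0.56 (adjusted p = 0.0201), which did not pass in 3 leave-one-out fits: its adjusted p was 0.0685 with Normal replicate 1 left out, 0.0756 with Normal replicate 2 and 0.0517 with Yap-activated replicate 3. Beside Gsdmd 10 of 35 tested genes were higher and 14 lower, with a median log2 fold change of -0.33. Its nearest tested neighbours went opposite ways, with Zc3h3, 20.4 kb away, at 1.02 (adjusted p = 5.91e-04) and Mroh6, 16.7 kb away, at -2.43 (adjusted p = 1.77e-04, edgeR).

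**Figure D3:**
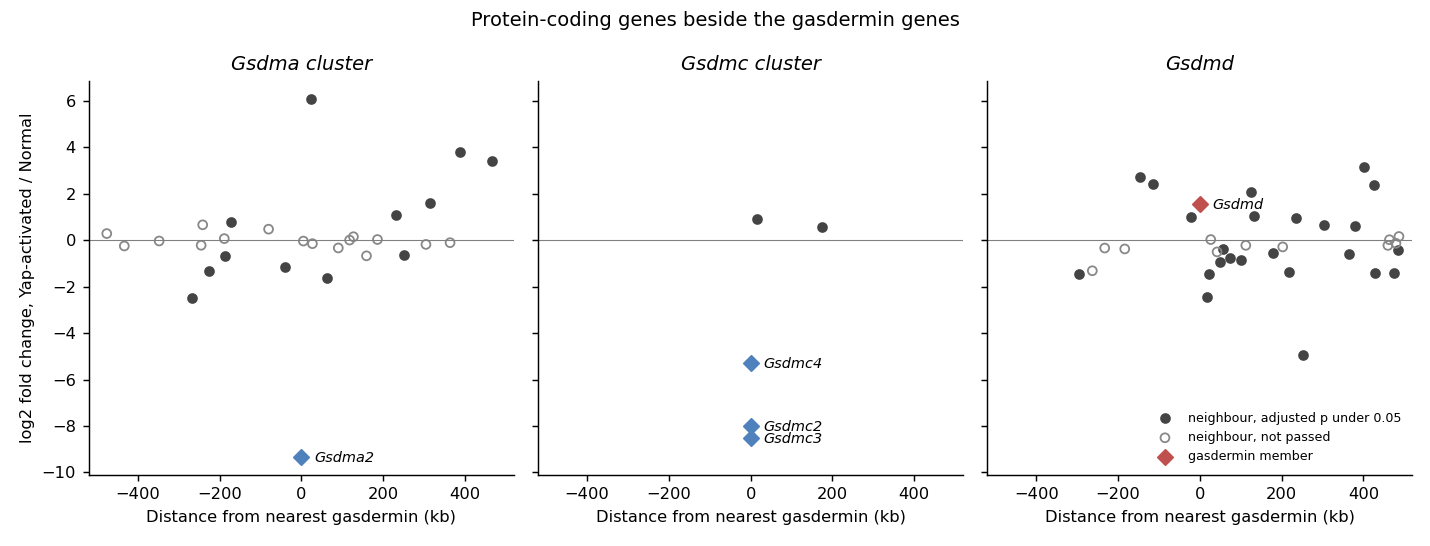
Log2 fold change (Yap-activated over Normal) of tested protein-coding genes against their distance in kb from the nearest gasdermin, beside the Gsdma cluster, the Gsdmc cluster and Gsdmd; filled points passed at adjusted p under 0.05, open points did not, and diamonds are gasdermins. Gsdma2 at -9.33 and Gsdmc2, Gsdmc3 and Gsdmc4 at -5.27 to -8.50 lie below every neighbour, the lowest of which is at -4.96.

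Gasdermins act only after cleavage, so the proteases that cut them were read in the same test. Of 10 such genes 7 were tested, 4 were higher, 2 lower and 1 did not pass, with a list median of 0.88 against 0.01 for all genes. Among all genes tested, 29.8% were higher and 29.7% lower. Casp4, which encodes the mouse caspase-11 that senses cytosolic lipopolysaccharide and cleaves Gsdmd, had 9.42, 3.89 and 8.15 CPM in Yap-activated and 1.51, 1.40 and 1.17 CPM in Normal libraries (log2 fold change 2.39, SE 0.36, adjusted p = 8.02e-04). Casp8, a caspase of death receptors, rose by 0.88 on the log2 scale (adjusted p = 1.26e-04), and Casp6, an effector caspase, fell by 1.60 (adjusted p = 0.00176). Casp6 had the highest mean level of the list, with 37.6, 68.7 and 70.7 CPM in Yap-activated and 148, 169 and 219 CPM in Normal libraries. Casp1, the caspase of inflammasomes, was low in both groups, with 1.66, 1.07 and 3.74 CPM in Yap-activated and 1.14, 1.24 and 0.759 CPM in Normal libraries, which overlap (log2 fold change 1.05, adjusted p = 0.0972). It passed without Yap-activated replicate 2 (1.37, adjusted p = 0.0250). Gzma, a granzyme of lymphocytes and one of the 4 called higher, did not pass with Normal replicate 2 left out (adjusted p = 0.0601), nor with Normal replicate 3 left out (0.0666), and was at 2.14 without Yap-activated replicate 1 in place of 3.92.

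Of 16 inflammasome sensors and adaptors, 15 were tested, 7 were higher, 1 lower and 7 did not pass (median 0.73). Among all genes tested, 59.5% were called, 29.8% as higher and 29.7% as lower. Nlrp10, a sensor also known from skin keratinocytes, had 12.0, 22.0 and 40.5 CPM in Yap-activated and 0.146, 0.143 and 0.0632 CPM in Normal libraries (log2 fold change 7.66, SE 0.63, adjusted p = 6.54e-05). Aim2, a sensor of cytosolic DNA, had 65.5, 117 and 110 CPM in Yap-activated and 17.2, 19.8 and 12.4 CPM in Normal libraries (log2 fold change 2.57, SE 0.27, adjusted p = 1.89e-04). Nlrp3, a sensor of membrane damage, rose by 3.52 on the log2 scale (SE 0.56, adjusted p = 0.00121), by 3.03 without Yap-activated replicate 1. Dpp8, a peptidase that restrains Nlrp1 and with the highest mean level of the list, was at -0.18 (adjusted p = 0.184). The gene that fell was Pycard, the adaptor that joins sensors to caspase-1, with 7.42, 13.7 and 15.5 CPM in Yap-activated and 37.2, 32.9 and 15.6 CPM in Normal libraries (log2 fold change -1.22, SE 0.39, adjusted p = 0.0300). It did not pass in 4 of 6 leave-one-out fits, with an adjusted p of 0.0937 when Normal replicate 1 was left out, 0.0899 for Normal replicate 2, 0.0626 for Yap-activated replicate 1 and 0.0536 for Yap-activated replicate 2. Naip1 and Naip5, sensors of bacterial flagellin and secretion systems, were called higher at adjusted p = 0.0137 and 0.0210. Both lost the call without Normal replicate 1 (0.0565 and 0.0629) or Normal replicate 3 (0.0518 and 0.0785).

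Genes of cargo that leaves cells after gasdermin pores form were read in the same way. Of 5 genes tested, 4 rose and 1 did not pass, where 29.8% of all genes rose. The list median was 1.96 against 0.01 for all genes. Like the other lists, it was chosen with earlier results of these data known, so its count and median are descriptions. Il1a, an alarm cytokine of epithelium, had 39.5, 28.5 and 25.9 CPM in Yap-activated and 0.670, 0.832 and 0.790 CPM in Normal libraries (log2 fold change 5.35, SE 0.23, adjusted p = 2.15e-06, edgeR). Il1b, which caspase-1 processes, had 154, 26.6 and 77.7 CPM in Yap-activated and 2.53, 1.497 and 1.74 CPM in Normal libraries (log2 fold change 5.49, SE 0.71, adjusted p = 6.86e-04). Il33, a nuclear alarmin, had 497, 178 and 186 CPM in Yap-activated and 74.0, 81.1 and 66.8 CPM in Normal libraries (log2 fold change 1.96, SE 0.41, adjusted p = 0.00578).

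Yap-activated replicate 1 was the highest library for all 3 cytokines: without it the log2 fold change was 4.77 for Il1b and 1.31 for Il33. That library also had the highest S100a8, S100a9 and Cd14 of the myeloid list, while Ptprc, Cd68, Csf1r and Adgre1 were highest in replicate 3. The part of myeloid cells in these levels was not tested. Il18, the other cytokine that caspase-1 processes, was at -0.04 (adjusted p = 0.928).

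Genes of membrane rupture and necroptosis, a lytic death that uses another pore, moved both ways, as all genes did (29.8% higher and 29.7% lower). Of 7 tested, 2 rose, 2 fell and 3 did not pass (median -0.05). Ninj1, whose protein breaks the plasma membrane after gasdermin pores form, had 23.4, 24.05 and 26.9 CPM in Yap-activated and 47.5, 50.1 and 43.3 CPM in Normal libraries (log2 fold change -0.92, SE 0.11, adjusted p = 2.02e-04, edgeR). Its relative Ninj2 fell by 6.80 on the log2 scale (SE 0.34, adjusted p = 3.74e-06), with 0.0339, 0.0716 and 0.0558 CPM in Yap-activated and 5.85, 6.49 and 7.24 CPM in Normal libraries. Ripk3, the kinase of necroptosis, rose by 2.56 (SE 0.16, adjusted p = 8.53e-06), with 30.9, 35.4 and 33.5 CPM in Yap-activated and 6.23, 6.11 and 4.58 CPM in Normal libraries. The second gene that rose was Mlkl, which forms the necroptotic pore, at 0.99 (adjusted p = 4.78e-04).

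Genes that repair or govern the pore moved both ways, as all genes did (29.8% higher and 29.7% lower). Of 10 genes of the ESCRT-III machinery, which sheds damaged membrane, 3 rose, 3 fell and 4 did not pass (median 0.01). The clearest were Chmp2b at 0.85 (SE 0.14, adjusted p = 0.00136), Chmp4b at 0.42 (SE 0.11, adjusted p = 0.0121), both higher, and Vps4a, the ATPase that recycles the machinery, at -0.50 (SE 0.09, adjusted p = 0.00245). With library totals alone, which moves the median log2 fold change of all genes to 0.50, Vps4a was at -0.00, Chmp2a at 0.17 and Chmp3 at 0.23, and 0 genes of the list fell. The calls of Chmp2a, at -0.33 (adjusted p = 0.0466), and Chmp3, at -0.26 (0.0436), were lost in 4 and 6 of the 6 leave-one-out fits, and that of Chmp5, at 0.35 (0.0225), in 4.

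Of 12 regulators of pore formation, 3 rose, 5 fell and 4 did not pass (median -0.04). Lamtor2 and Lamtor4, of the Ragulator complex that promotes Gsdmd pores, fell by 1.23 (SE 0.12, adjusted p = 6.95e-05) and 1.12 (SE 0.10, adjusted p = 6.49e-05), while Lamtor5 of the same complex rose by 0.41 (adjusted p = 0.0185). That call and the one of Rraga, a GTPase beside Ragulator at 0.34 (adjusted p = 0.0274), were lost in 3 and 4 of the 6 leave-one-out fits. Serpinb1a, an inhibitor of inflammatory proteases, had 241, 244 and 202 CPM in Yap-activated and 46.9, 52.9 and 51.2 CPM in Normal libraries (log2 fold change 2.18, SE 0.12, adjusted p = 5.29e-06, edgeR).

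Of 7 genes known to act upstream of gasdermin transcription, 4 rose and 3 did not pass (median 0.52), where 29.8% of all genes rose. Of the 4, Tgfbr2, a TGF-beta receptor at 0.52 (adjusted p = 0.0267), lost its call in 5 of the 6 leave-one-out fits. Interleukin-4 and interleukin-13 signalling is known to raise Gsdmc genes in the mouse intestine. Its receptor gene Il4ra had 263, 174 and 243 CPM in Yap-activated and 32.6, 33.6 and 29.9 CPM in Normal libraries (log2 fold change 2.82, SE 0.17, adjusted p = 8.19e-06), and Il13ra1 rose by 1.16 (SE 0.12, adjusted p = 1.21e-04). Stat6, the factor below these receptors, was at 0.19 (adjusted p = 0.224). Irf1 rose by 1.17 (SE 0.22, adjusted p = 0.00258), and Irf2, known to drive Gsdmd in mouse macrophages, was at -0.14 (adjusted p = 0.438). Irf2 passed without Yap-activated replicate 2, at -0.33 (adjusted p = 0.0407).

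**Figure D4:**
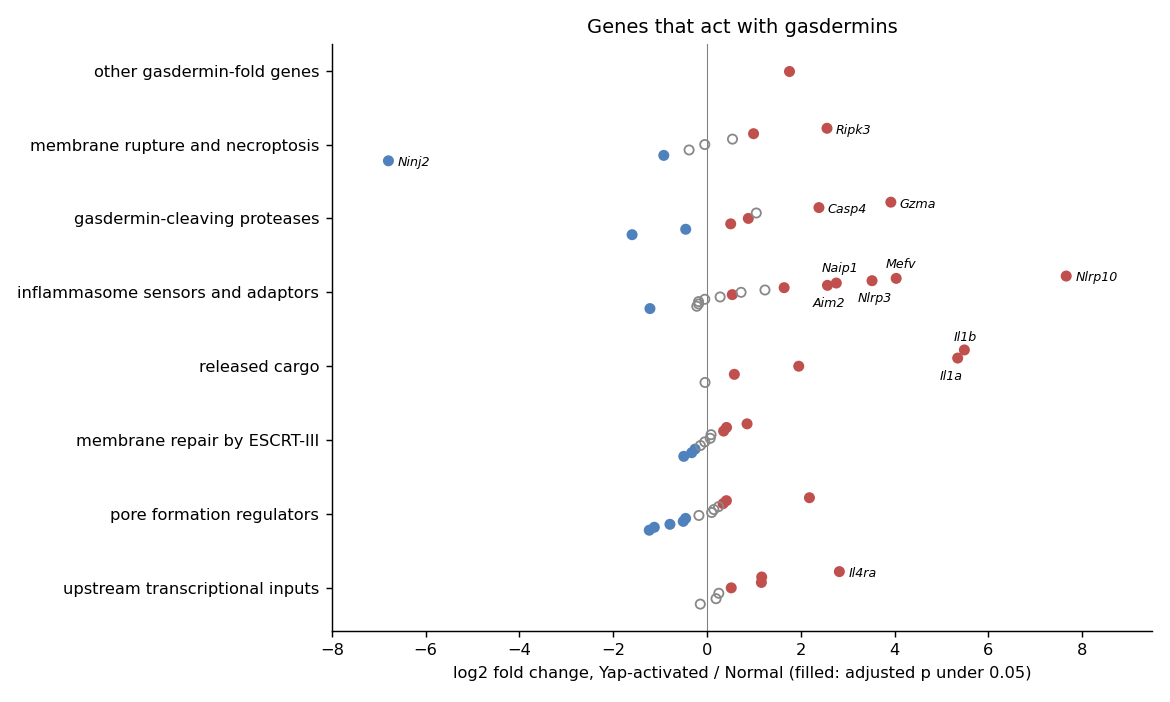
Log2 fold change (Yap-activated over Normal) of each tested gene of 8 lists that act with gasdermins; filled red points rose and filled blue points fell at adjusted p under 0.05, and open points did not pass. Points reach from Ninj2 at -6.80 to Nlrp10 at 7.66, and every called gene of the cargo and upstream lists lies above 0.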

How the data were processed

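RNA from gastric corpus epithelium was sequenced as stranded, paired 50-base reads, per the labels' protocols. Per the submitters' processing notes, GRCm38 (mm10), STAR 2.4.2a and DESeq2 were used. The deposited values are raw counts per gene for 6 libraries, made by the authors. The sources used here do not give the counting program, annotation, strand setting or treatment of multiply matching reads. Of 21526 genes, 21523 were found by symbol in GENCODE mouse release 21.

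Counts were tested with edgeR 4.0.16 in R 4.3.3 (TMM scaling, filterByExpr with a minimum count of 10, robust quasi-likelihood test of Yap-activated over Normal), with Benjamini-Hochberg adjustment over 14600 genes and a threshold of 0.05. It was tested on simulated data. CPM per kb used merged exon lengths. Alternatives used other scalings and filters, DESeq2 1.42.0, limma 3.58.1, a replicate block, thinned counts, summed copies and single libraries left out.

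Members and lists were chosen with earlier results of these data known. Named from each list were the 3 genes with the smallest p and the one with the highest mean. Named elsewhere were the nearest tested neighbours and the 5 genes most like each member, of which the text gives those most like. Genes outside this rule, among them those whose calls 1 library decided, were named after their values were seen. A count of 0 was read as up to 3 counts. Values of 1 listed gene are not reported here.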

Additional observations from a re-analysis of the deposited data

How the results depend on the processing

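Of the 8 gasdermins only 5 were tested, and their calls, made on genes chosen with these fold changes in view, support nothing. With library totals alone, 7522 genes were higher and 2299 lower, in place of 4345 and 4337. That scaling gave Gsdma2 at -8.83 and Gsdmd at 2.06, 1 protease lower, 11 inflammasome genes higher and 0 lower, 7 ESCRT-III genes higher and 0 lower, 7 pore regulators higher and 3 lower, and 31 neighbours higher and 12 lower. It moves the median of all genes from 0.01 to 0.50 on the log2 scale. ESCRT-III genes called lower numbered 1 with DESeq2 size factors, upper quartile scaling, DESeq2 and thinned counts. Within 100 kb, a distance chosen after seeing the data, 3 neighbours were higher and 7 lower. Fewer genes lie within that distance, and among all genes tested 29.8% were higher and 29.7% lower. The higher ones were Csf3, Fam49b and Zc3h3. The lower ones were Ormdl3 and Thra beside the Gsdma cluster and Mroh6, Naprt, Pycrl, Tsta3 and Zfp623 beside Gsdmd.

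Libraries with the same number did not deviate together (correlations 0.04, 0.0027 and 0.069), so the numbers were not taken as pairs. With a replicate block 4239 genes were higher and 4322 lower, and 0 inflammasome genes were lower.

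Leaving out single libraries gave 1 to 2 proteases lower, 0 to 2 inflammasome genes lower, 1 to 2 ESCRT-III genes lower, 1 to 3 pore regulators higher and 0 to 1 upstream genes lower. It gave Gsdmc2 from -9.98 to -7.39, Gsdmc3 from -9.71 to -8.12 and Gsdma2 from -9.42 to -9.23. Where a call changed otherwise, the cause was not tested. The Yap-activated counts of the Gsdmc genes, 0 to 21 per library, limit the precision of their fold changes.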

Other observations

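The genes most like Gsdmd over the 6 libraries, by root-mean-square difference in centred log2 CPM, were Slc22a21, a carnitine transporter, at 0.0613, and Tuba1b, an alpha-tubulin, at 0.0665. Slc22a21 had 12.6, 9.80 and 11.2 CPM in Yap-activated and 4.75, 3.75 and 2.81 CPM in Normal libraries. For Gsdme they were Haus6, a spindle assembly gene, at 0.0373, Ets1, a transcription factor, at 0.0536, Fancd2 and Rad54l, DNA repair genes, at 0.0699 and 0.0744, and Pla2g2d, a secreted phospholipase, at 0.0774. Haus6 had 41.6, 41.9 and 37.9 CPM in Yap-activated and 14.0, 11.1 and 11.9 CPM in Normal libraries. These are descriptions over 6 libraries in 2 groups.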
